A study of Mus musculus with 6 samples.

Results

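The regions described here are the CTCF-bound stretches at replication-dependent histone genes in mouse embryonic stem cells. They were every region of the deposited joined peak table that overlapped, or lay within 10000 bp of, a protein-coding gene whose symbol begins with Hist1h, Hist2h, Hist3h or Hist4h in the mm9 annotation. This rule used position alone and found 53 of the 57662 regions, called histone regions below, at 50 of 67 genes. The rule reads the symbol, so it also takes in members of the clusters that are transcribed from units with introns or of the testis.

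The study asked how loss of an O-linked N-acetylglucosamine (O-GlcNAc) sugar on the insulator protein CTCF changes where CTCF sits on chromatin. Every line came from mouse ESCs whose own CTCF carries an auxin-inducible degron tag (CTCF-mAID cells), so that auxin removes it. WT_CTCF cells carried an introduced wild-type CTCF, and MUT_CTCF cells an introduced CTCF with threonine replaced by alanine at T668, the site of the sugar, both under auxin. CTCF ChIP-seq with Drosophila spike-in chromatin was done in 2 libraries of each genotype. The cells were picked clones, so genotype and clone cannot be told apart, and the study's methods call the 2 libraries of a line biological replicates without saying how they were separated. ChIP-seq against CTCF holds no expression values, so the cell type could not be checked against marker genes. Input chromatin was not analysed here.

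Replication-dependent histone genes supply the bulk of the H1, H2A, H2B, H3 and H4 proteins while DNA is copied, and they lie in clusters whose transcripts end in a stem-loop instead of a poly(A) tail. Most have no intron, and paralogues of 1 family share much of their coding sequence. CTCF reads an oriented DNA motif through its zinc fingers, holds cohesin and anchors chromatin loops.

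The 6 sequences that follow lie in histone regions with a peak in all 4 libraries and show the motif on which those regions centre. Capitals mark the best match to the 13-base core of the CTCF motif, on the motif strand of mm9, with 6 bases on each side. The first 2 hold the core with no mismatch, and the other 4 hold it with 1 mismatch.
Hist1h4j upstream region (chr13:21825934-21826564, minus strand): ggatggCCACTAGAGGGCActcttg
Hist1h2be intron region (chr13:23689693-23690405, minus strand): tggaaaCCACTAGGTGGCGctgcga
Hist1h4c downstream region (chr13:23789155-23789827, minus strand): catctgCCACAAGAGGGCGgcgtta
Hist1h1c upstream region (chr13:23824285-23824837, minus strand): tagcagACACTAGATGGCAggccaa
Hist2h4 start region (chr3:96067202-96067844, minus strand): aaggaaCCGGTAGAGGGCAgagaag
Hist2h2bb second-exon region (chr3:96081353-96082821, plus strand): agatgaCCACGAGATGGCGccagcg

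A second pair is shown for contrast, because both regions touch histone coding sequence and were called in WT_CTCF libraries alone. Their best matches, again in capitals, carried 2 mismatches each and were identical at 24 of 25 bases, although the regions are on different chromosomes. The first match lies in the coding sequence of Hist3h2a, and the second in the neighbouring annotated gene Gm11336, outside Hist1h2bb. The WT_CTCF summits lay 262 and 286 bp from the first match and 473 and 293 bp from the second, so neither match marks the centre of its peak.
Hist3h2a region (chr11:58767989-58768504, minus strand): tggccaACTGCAGGTGGCGcgggat
Hist1h2bb region (chr13:23837954-23838808, plus strand): tggccaGCTGCAGGTGGCGcgggat

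The histone regions followed the gene clusters. The Hist1 genes of chromosome 13 formed a first stretch of 23 genes over 328 kb (chr13:21807632-22135545) with 15 regions and a second stretch of 31 genes over 404 kb (chr13:23622919-24026720) with 25 regions. Hist1h2al, a lone H2A gene farther along chromosome 13, had 2 regions. The Hist2 cluster on chromosome 3, with 9 genes over 59.1 kb (chr3:96023839-96082924), had 9 regions, and the pair of Hist3 genes on chromosome 11 had 2. Hist4h4, the H4 gene on chromosome 6, had none within 10000 bp. Neighbouring regions lay at a median spacing of 3.45 kb in the first Hist1 stretch, 6.09 kb in the second and 2.95 kb in Hist2.

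**Figure D1:**
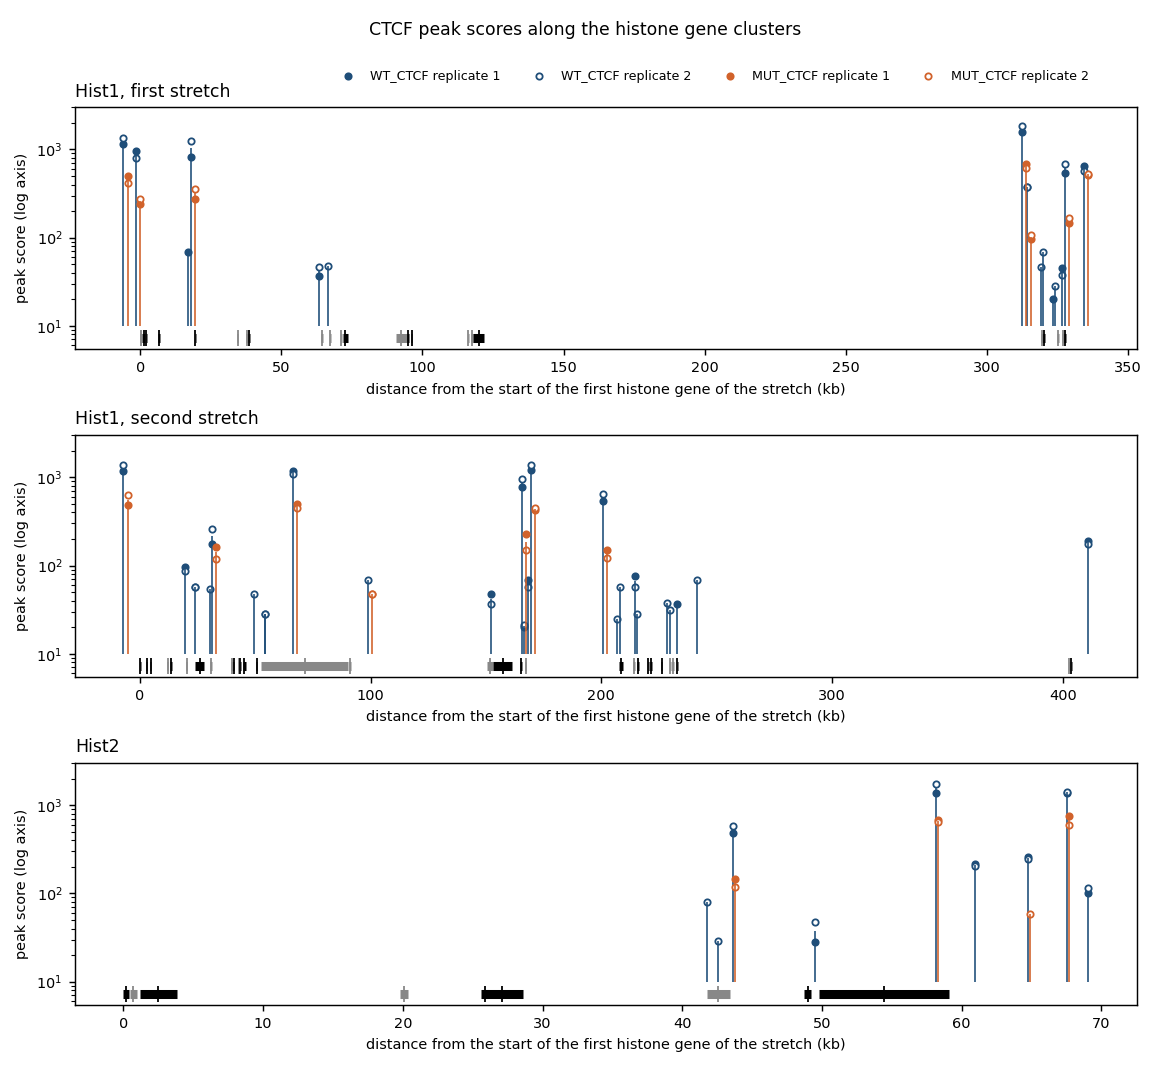
Peak score (log axis) of each called library along the 2 Hist1 stretches and the Hist2 cluster, against distance in kb from the start of the first histone gene; stems and points are WT_CTCF (blue) and MUT_CTCF (orange, drawn slightly to the right), filled for replicate 1 and open for replicate 2, and bars at the base are genes (black on the plus strand, grey on the minus strand). Most tall stems with both colours stand between or beside the genes, with those on Hist2h2bb, Hist1h2be and Hist2h4 as exceptions, while most short blue stems without orange lie over or close to genes, and the middle of the first stretch has no region.

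A region was taken as called in a library when that library's deposited peak list had a peak on at least 1 bp of it. The WT_CTCF lists held peaks on 37 and 47 of the 53 histone regions, and the MUT_CTCF lists on 18 and 19. The libraries of the 2 genotypes did not overlap. The means were 42 ± 7.07 for WT_CTCF and 18.5 ± 0.707 for MUT_CTCF (SD, n = 2 libraries each), a ratio of 0.440. Counting only scores at or above the pooled median of 250 shrank the difference from -23.5 to -6.5 regions. Over all regions the WT_CTCF lists covered 49775 and 53876 and the MUT_CTCF lists 33600 and 32382, a ratio of 0.637. As shares, 69.8% and 88.7% of histone regions were called in WT_CTCF and 34.0% and 35.8% in MUT_CTCF, beside 86.3% and 93.4%, and 58.3% and 56.2%, of all regions. With 2 libraries against 2, an exact two-sided permutation test cannot give a p below 0.333, which is the value for the number of histone regions called, so no difference between genotypes here could pass a threshold of 0.05.

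For each library the deposited lists give peaks with their position, width, summit and score, and no read counts. The score comes from the authors' peak caller on coverage tracks scaled by spike-in reads, its definition and cutoff are not given in the sources used here, and the reads per library are unknown. A lower score or a missing peak in MUT_CTCF is therefore a difference in these deposited scores and calls, not a measured difference in the amount of bound CTCF. From its spike-in normalized ChIP-seq, the study reported a significant rise in chromatin binding of MUT_CTCF across the genome. Its blots of chromatin-bound CTCF and its additional clones went the same way. The lower scores and fewer calls described here run opposite to that result, and why was not tested.

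Of the 53 histone regions, 17 (32.1%) were called in all 4 libraries, beside 52.6% of all regions. Both WT_CTCF libraries and neither MUT_CTCF library called 13 (24.5%, beside 19.5%), and 1 WT_CTCF library alone called 21 (39.6%, beside 18.8%). Of these 21, 6 were in replicate 1 (28.6%) and 15 in replicate 2 (71.4%), close to the 31.9% and 68.1% of all such regions. Without WT_CTCF replicate 1, the number called in every remaining WT_CTCF library and in no MUT_CTCF library was 28 in place of 13. Over all regions the same number was 18640 in place of 11266. The 34 regions without a MUT_CTCF peak made up 64.2%, beside 38.3% of all regions. No histone region was called in both MUT_CTCF libraries and neither WT_CTCF library, and 0 of 53 allows a share of up to 5.66% by counting error alone, beside 0.033% of all regions. The remaining 2 were called in 3 of the 4 libraries. A region 8252 bp from the linker histone gene Hist1h1e (chr13:23722623-23722841) scored 68 in WT_CTCF replicate 2 and 48 and 47 in MUT_CTCF, with no peak in WT_CTCF replicate 1. A region 5487 bp from Hist2h2bb (chr3:96088411-96088863) scored 258 and 245 in WT_CTCF and 58 in MUT_CTCF replicate 2, with no peak in replicate 1.

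**Figure D2:**
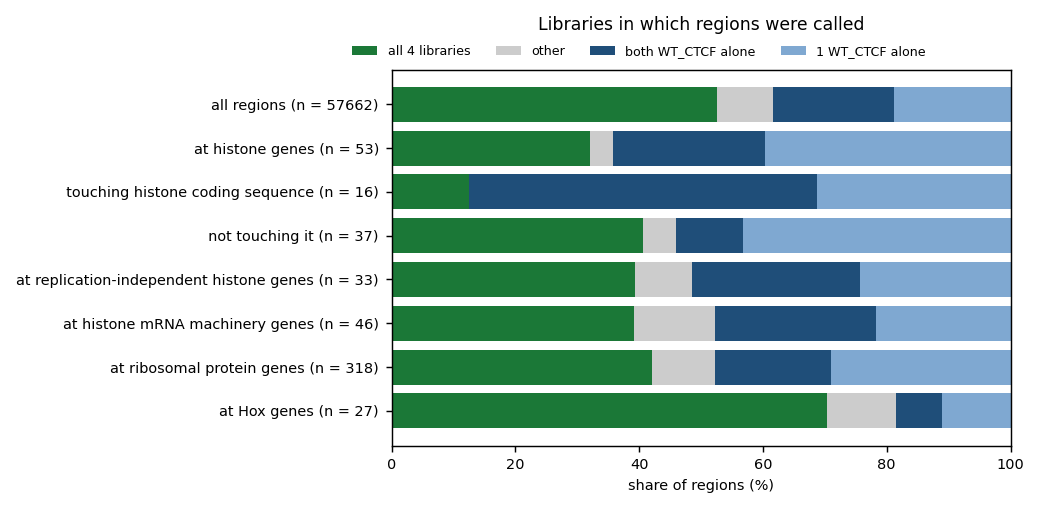
Share of regions (%, x axis) called in all 4 libraries, in both WT_CTCF libraries alone, in 1 WT_CTCF library alone or in another combination, for all 57662 regions, for the 53 histone regions whole and split by coding sequence, and for regions at other gene groups. The green share, called in all 4 libraries, is 52.6% for all regions, 32.1% for histone regions and 12.5% for those touching histone coding sequence.

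The 17 regions with a peak in every library had most of the high mean signals, with some overlap with the others. The authors' mean signal, which is the average of scaled reads over all 4 libraries and so has no error of its own, had a median of 263 over these 17 and 25.8 over the 34 seen in WT_CTCF alone, beside 95.3 over all regions. Mean signal and number of calls come from the same reads, so this is a description. By call, the first Hist1 stretch held 7 of the 17, the second 6, Hist1h2al 1, Hist2 3 and Hist3 none. At least 1 of them lay within 10000 bp of 25 of the 67 genes, namely 3 H1, 6 H2A, 8 H2B, 3 H3 and 5 H4 genes.

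The highest mean signal of any histone region, 1091, was at Hist2h2bb (ENSMUSG00000050936.3), which encodes an H2B protein. This region covers the second exon of the gene, where its coding sequence ends and its 3′ UTR begins. It scored 1390 and 1747 in WT_CTCF and 681 and 646 in MUT_CTCF, a ratio of means of 0.423. Each MUT_CTCF list split it into 2 peaks, and the higher was used.

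Farther out, a region 8107 bp from Hist2h2bb and beside the Fc receptor gene Fcgr1 (chr3:96091031-96091883), scored 1372 and 1431 in WT_CTCF and 753 and 594 in MUT_CTCF, with a mean signal of 583. Its MUT_CTCF scores were 0.481 of WT_CTCF, the third highest ratio of the 17. In the first Hist1 stretch, a region 5642 bp from the H2A gene Hist1h2ah (chr13:22120417-22121340) had the highest WT_CTCF scores of any histone region, 1594 and 1833, and scored 683 and 623 in MUT_CTCF. At the other end of this stretch, a region 4577 bp from the H2B gene Hist1h2bl (chr13:21801682-21803055) scored 1160 and 1333 in WT_CTCF and 503 and 415 in MUT_CTCF. In all 4 of these strong regions the genotypes were separated by more than the gap between libraries of a genotype. The region with the next highest mean signal, 350, lay 6849 bp from Hist1h2bj. There the genotypes were not separated by that much, as described below.

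The largest relative differences lay near Hist1h4c, Hist1h1c and Hist2h4. The region 102 bp from the end of the H4 gene Hist1h4c (ENSMUSG00000060678.4) scored 775 and 956 in WT_CTCF and 225 and 149 in MUT_CTCF, a ratio of 0.216 (log2 -2.21). The region 5839 bp upstream of Hist1h1c (ENSMUSG00000036181.1), a linker histone gene, scored 536 and 654 in WT_CTCF and 150 and 123 in MUT_CTCF, a ratio of 0.229 (log2 -2.12). The Hist2h4 region (ENSMUSG00000091405.1) is the only one of the 17 that covers the start of a histone gene. It scored 482 and 586 in WT_CTCF and 144 and 117 in MUT_CTCF, a ratio of 0.244 (log2 -2.03).

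The smallest differences were at Hist1h2bj and Hist1h3e. The region 6849 bp beyond the H2B gene Hist1h2bj, at the edge of the first stretch (chr13:22142394-22143323), scored 655 and 572 in WT_CTCF and 509 and 533 in MUT_CTCF, a ratio of 0.849 (log2 -0.24). Only 39 score units parted the lower WT_CTCF value from the higher MUT_CTCF value there, less than the 83 between the WT_CTCF libraries. The region 545 bp from the H3 gene Hist1h3e (chr13:23654783-23655359) scored 176 and 259 in WT_CTCF and 164 and 118 in MUT_CTCF, a ratio of 0.648 (log2 -0.63). Here too the gap between genotypes was narrower than the spread between libraries. Neither region held the core motif with at most 1 mismatch.

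A pair of regions near Hist1h2bj shows how neighbours differed. The region 224 bp from the gene (chr13:22135769-22136471) scored 536 and 689 in WT_CTCF and 145 and 167 in MUT_CTCF, a ratio of 0.255, against 0.849 for the one farther out. Among the other regions of the 17, the Hist1h2be intron region scored 1179 and 1104 in WT_CTCF and 503 and 444 in MUT_CTCF, and the Hist1h4j region 828 and 1237 in WT_CTCF and 277 and 358 in MUT_CTCF. The remaining regions had ratios between 0.270 and 0.433.

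**Figure D3:**
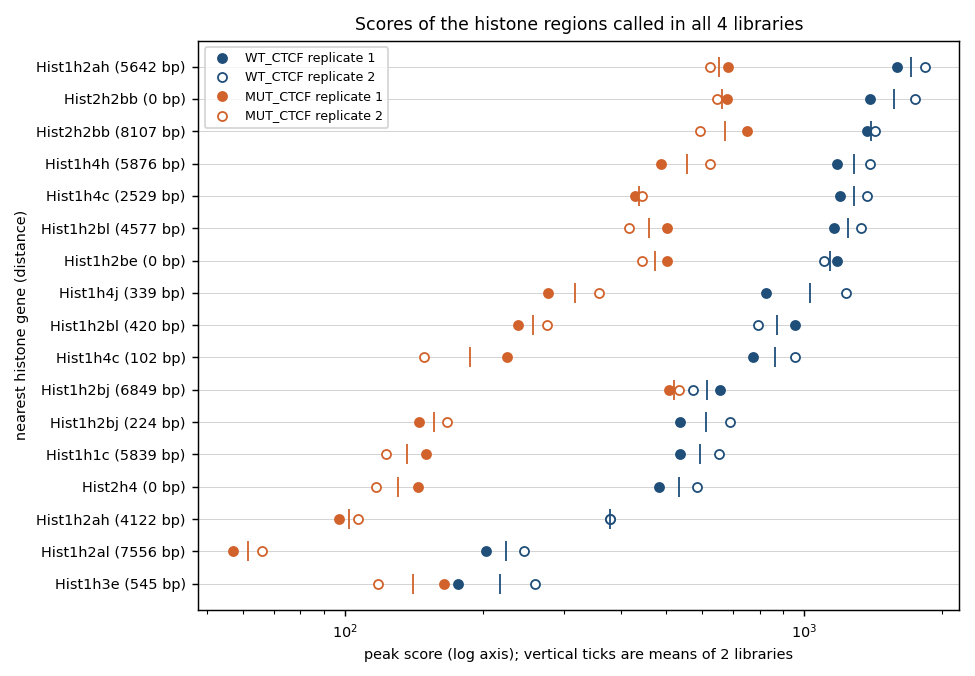
Peak score (log x axis) of the 17 histone regions called in all 4 libraries, 1 row each by nearest histone gene and distance, with WT_CTCF in blue and MUT_CTCF in orange, filled for replicate 1, open for replicate 2 and vertical ticks for the mean of 2 libraries. Every orange point lies left of every blue point of its row, with the narrowest gaps at Hist1h2bj (6849 bp) and Hist1h3e.

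In all 17 regions both MUT_CTCF scores were below both WT_CTCF scores, which was so for 96.2% of the 30317 regions of the series called in all 4 libraries, so the direction was that of nearly all regions. The opposite order held for no histone region and for 0.221% of all. The median score of the 17 was 828 and 956 in WT_CTCF and 277 and 358 in MUT_CTCF, with means of 892 ± 90.5 and 318 ± 57.3 (SD, n = 2), a ratio of 0.356. The same medians over all 30317 regions were 569 and 620 in WT_CTCF and 263 and 250 in MUT_CTCF, a ratio of 0.431. The score in MUT_CTCF was under 50% of that in WT_CTCF at 15 of the 17. Over all 30317 regions the median ratio was 0.442, so a ratio under 50% was the more common case there too. The exact share over all regions was not counted.

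Set against all regions of the same library, the 17 histone regions scored higher by 0.54 and 0.62 on the log2 scale in WT_CTCF and by 0.075 and 0.52 in MUT_CTCF. The libraries of the 2 genotypes did not overlap, but the spread within MUT_CTCF was wide, with means of 0.58 ± 0.06 and 0.30 ± 0.31 (SD, n = 2), a difference of -0.29. Without MUT_CTCF replicate 1 the difference was -0.17 and without replicate 2 it was -0.51, so 1 library decided its size. For the 3 regions called in all libraries on gene bodies it was -0.06, with an exact permutation p of 0.667, so the libraries no longer separated. The peaks on the 17 regions were also narrower in MUT_CTCF, with median widths of 639 and 682 bp in WT_CTCF and 395 bp in both MUT_CTCF libraries. Over all regions the median widths were 526 and 554 bp in WT_CTCF and 401 and 386 bp in MUT_CTCF.

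The core motif, allowing 1 mismatch on either strand, was found in 14 of the 53 histone regions (26.4%), beside 60.6% of all regions. A match is a description of the sequence and not a mapped contact. It was present in 10 of the 17 regions called in all libraries (58.8%, beside 70.3% of all regions called in all 4) and in 4 of the 34 called in WT_CTCF alone (11.8%, beside 47.7% of all such regions). In the 10, the summit lay at a median of 10 and 11.5 bp from the match in WT_CTCF and 16 and 14 bp in MUT_CTCF, close to the match in both genotypes. The genotypes did not overlap, and over all regions the medians were 10 bp in both WT_CTCF and 11 bp in both MUT_CTCF libraries. Of the 17 regions called in all libraries, 7 had no such match. Those near Hist1h2bj (224 bp), Hist1h4h, Hist1h3e and Hist1h2al had summits within 30 bp of a match with 2 or 3 mismatches in every library. The outer Hist1h2bj region and the one beside Fcgr1 had theirs 77 to 111 bp from the best match, and the region near Hist1h2ah had its summits 347 to 371 bp away. Where matches tied, the one nearest the region's centre was taken. Closeness at 2 or 3 mismatches is therefore partly built in, and its value over all regions was not computed.

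Motif strands were mixed within the clusters. Among regions called in all libraries with a match, 2 lay on the plus and 2 on the minus strand in the first Hist1 stretch, 1 and 3 in the second, and 1 and 1 in Hist2. In windows from 250 bp before to 50 bp after the gene start, 1 of 67 histone genes held the core motif (1.49%), beside 760 of 22367 protein-coding genes (3.40%).

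Regions touching histone coding sequence were weak and mostly seen in WT_CTCF alone. A touch of 1 bp was enough, and how much coding sequence each region covers was not counted. Of the 16 that touched coding sequence, 14 (87.5%, beside 38.3% of all regions) had no MUT_CTCF peak, 9 of them with peaks in both WT_CTCF libraries and 5 in 1. The other 2 were the Hist2h4 and Hist2h2bb regions above. Of the 37 that touched none, 54.1% had no MUT_CTCF peak and 40.5% were called in all libraries. The median of the authors' mean signal was 32.3 for regions touching coding sequence and 51.8 for the others, and 2 of the 16 held the core motif. In 4 equal bins of all regions by mean signal, 9 of the 16 fell in the lowest and 5 in the second. Of all regions in those bins, 98.0% and 49.7% had no MUT_CTCF peak, so low signal and coding sequence are not separated here. This split by coding sequence was chosen after its values were seen and was not tested.

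**Figure D4:**
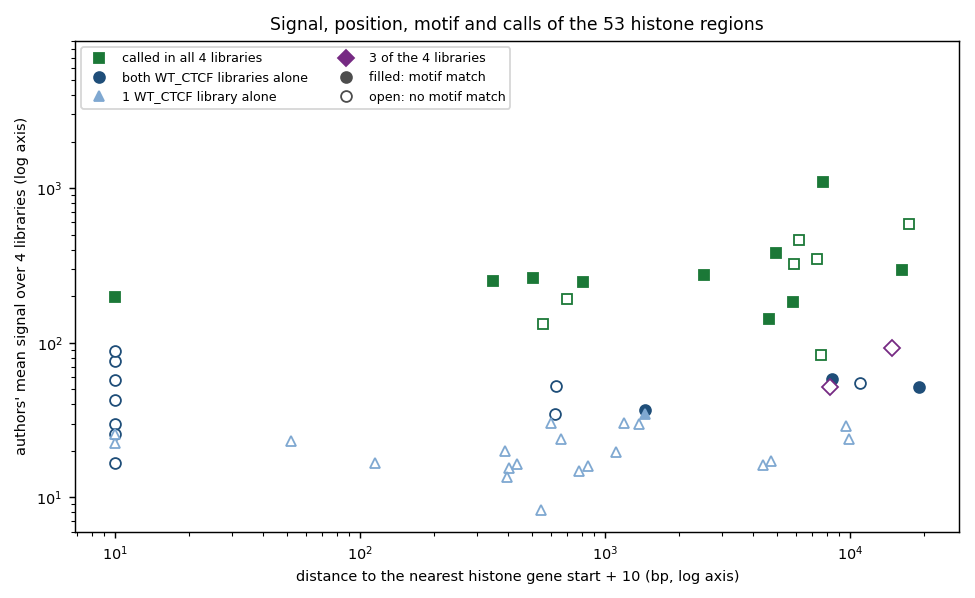
Authors' mean signal over 4 libraries (log y axis) of the 53 histone regions against distance from the nearest histone gene start plus 10 bp (log x axis), with shape and colour for the libraries that called the region and filled symbols for a core motif match. The green squares, called in all libraries, lie at mean signals of 83.3 to 1091, and 9 of the 10 regions that cover a gene start, at the left edge, are blue or light blue.

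By family, the linker histone genes were touched at Hist1h1b, where WT_CTCF scored 37 and 47, at Hist1h1d, with 57 in both libraries, and on a non-coding part of an exon of Hist1h1c, with 57 in replicate 2 alone. None of these had a MUT_CTCF peak. Among H2A genes, WT_CTCF scored 26 and 37 at Hist3h2a, in a region that also touches the Hist3h2bb pseudogene, and 47 and 37 at Hist1h2ac.

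Among H2B genes, the highest weak score was at Hist1h2bb, with 77 and 57 in WT_CTCF and a mean signal of 88. WT_CTCF scored 45 and 38 at Hist1h2bj and 28 and 47 at the start of Hist2h2bb. At Hist1h2bk 2 regions were called in replicate 2 alone, with scores of 46 and 68, and 2 regions in the intron of Hist1h2be scored 28 in 1 library each. These H2B values lay well under those of the intron region of Hist1h2be and the second-exon region of Hist2h2bb.

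The H3 genes gave peaks in WT_CTCF replicate 2 alone, with 48 at Hist1h3i and 31 at Hist1h3a. Among H4 genes, the Hist1h4f region (chr13:23643490-23643734) scored 97 and 86 in WT_CTCF, the highest of any region touching coding sequence without a MUT_CTCF peak. WT_CTCF scored 20 and 21 at Hist1h4c, and replicate 2 alone scored 48 at Hist1h4d and 28 on a non-coding part of the exon of Hist1h4i. In the 3′ UTR of Hist2h4, replicate 2 alone gave 79 and 29. Away from gene bodies, the highest scores without a MUT_CTCF peak were 216 and 203 at 1714 bp from Hist2h2bb and 189 and 177 at 8011 bp from Hist1h2aa.

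The low signal of these regions moved with the calls across the whole series. Of the 53 histone regions, 26 fell in the lowest of 4 equal bins of all regions by mean signal, and all 26 lacked a MUT_CTCF peak, beside 98.0% of all regions in that bin. In the second bin 8 of 11 (72.7%) lacked one, beside 49.7%. In the third bin all 5, and in the highest all 11, were called in every library, beside 91.1% and 98.4%. The motif share was well below that of all regions in the lowest bin, at 2 of 26 (7.69% against 45.4%), and in the second, at 2 of 11 (18.2% against 56.6%). In the third it was 3 of 5 (60% against 65.2%) and in the highest 7 of 11 (63.6% against 75.2%). Counts in these upper bins were too small to tell the shares apart.

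Sequence copies also varied along the clusters, and multiply aligned reads had been removed by the authors. Counting 31-base stretches that occur more than once in mm9, the median share of repeated stretches in coding sequence was 16.6% for H1, 88.1% for H2A, 85.5% for H2B, 88.4% for H3 and 78.5% for H4 genes. Reads that fall wholly inside repeated sequence cannot be assigned to 1 gene, so signal on core histone coding sequence is uncertain. The 17 genes without a region had a median of 20.8% repeated stretches in gene and 10000 bp flanks (range 7.74 to 98.5%), beside 11.6% (3.80 to 26.5%) for the 50 genes with one. Hist1h2ao and Hist1h2bq reached 98.5% and 97.3%, so little sequence there is unique at this length, whereas Hist4h4 stood at 10.8%. The histone regions themselves had a median of 0% and at most 28.8%. What part these copies play in the calls was not tested.

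Other gene groups, taken by the same 10000 bp rule, show where the histone regions stood. Genes whose symbols begin with Rps or Rpl and a number were taken as ribosomal protein genes. This symbol rule can also take in genes that encode no ribosomal protein. Regions at this group were called in all libraries in 42.1% of 318 cases and in no MUT_CTCF library in 47.8%. Regions at Hox genes, known for strong CTCF sites, gave 70.4% and 18.5% of 27. Regions at replication-independent histone genes gave 39.4% and 51.5% of 33. Among regions called in all libraries, the median ratio of MUT_CTCF to WT_CTCF score was 0.340 at the histone regions, 0.346 at Hox genes, 0.430 at ribosomal protein genes, 0.391 at replication-independent histone genes and 0.442 over all regions. These differences between groups are given as descriptions with no test.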

How the data were processed

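CTCF ChIP-seq libraries of WT_CTCF (2) and MUT_CTCF (2) cells were used, grouped by their GEO titles. Per the labels, the authors used Trim Galore 0.4.4, Bowtie2 2.3.4.1, MACS2 2.1.1.20160309, deepTools 3.1.1 and DESeq2 1.38.0 with mm9, and per the study's methods removed multiply aligned and duplicate reads and scaled tracks by Drosophila spike-in reads. The deposited peak lists give a score per peak and library. The deposited table of joined regions gives a mean signal over the 4 libraries, and 5 columns of the authors' own comparison (fold change, error, statistic and p-values), which were not used.

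Starts were converted to 1-based positions. A region took the highest score among its peaks in a library. Genes came from GENCODE M1, and both mm9 strands were scanned for the 13-base CTCF core with at most 1 mismatch. Among equally good matches, the one nearest the region's centre was used. Named regions were those on histone gene bodies, the 5 of highest mean signal, those not called in all libraries, and the 3 lowest and 3 highest score ratios, with groups of over 10 given by counts. The Hist1h4j, Hist1h4h and Hist1h2al regions and the one 224 bp from Hist1h2bj, all called in every library, were named outside this rule after their values were seen. Values per library were compared by an exact permutation test in Python 3.11.15 with numpy 2.4.6, and the code was tested on simulated data. Alternatives changed the distance, the overlap, a score minimum, motif mismatches, the library scale, the replicate block and the libraries left out. The log2 ratio of replicate 1 to replicate 2 scores did not correlate between genotypes (-0.0033 over 30317 regions). Such a correlation cannot show a shift common to libraries of the same number. Whether replicate numbers pair the libraries was therefore not settled. The members and gene lists were chosen with earlier results of these data known. Reads per library are unknown, so no interval for depth could be given.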

Additional observations from a re-analysis of the deposited data

How the results depend on the processing

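Over 9 results there were 77 alternative values, and no difference between genotypes changed sign, but sizes varied. Counts and shares have no sign to change, and the replicate block repeats the main difference by construction. Neither could therefore show a reversal. The difference in regions called went from -23.5 to -6.5 with the score minimum, -14.5 on gene bodies, -28 with 50% cover and -34 at 25000 bp, and that in log2 score against all regions from -0.29 to -0.21, -0.06, -0.47 and -0.17. Histone regions called in all libraries fell from 17 to 3 when only the 23 on gene bodies were kept, to 9 with scores of at least the pooled median of 250 and to 10 when a peak had to cover 50% of the region, and the number with both MUT_CTCF scores below WT_CTCF moved to the same 3, 9 and 10. Those called in both WT_CTCF and neither MUT_CTCF library went from 13 to 21 with a distance of 25000 bp, to 5 with the score minimum and to 34 when 1 WT_CTCF library was enough. Over all regions such counts were not computed with the score minimum or the 50% cover. The motif share went from 26.4% to 3.77% with no mismatch and 50.9% with 2. Over all regions it went from 60.6% to 12.7% and 86.0%. Leaving out 1 library gave 13 to 28 regions in WT_CTCF alone (28 without WT_CTCF replicate 1), 17 to 18 called in all libraries and as many lower in MUT_CTCF, and differences of -28.5 to -18.5 regions called, -615 to -511 in median score, -278 to -244 bp in width, -0.51 to -0.17 in log2 score against all regions and 3.25 to 5.25 bp in summit distance. With the replicate block, pairing libraries by number, the differences were -23.5 regions, -575 in score, -266 bp, -0.29 and 4.25 bp, with an exact sign-flip p of 0.5, the smallest 2 pairs allow. After dividing scores by the median of each library's whole peak list, 15 of the 17 regions stayed lower in MUT_CTCF. The lists held 49987 and 54001 peaks in WT_CTCF and 33939 and 32712 in MUT_CTCF, so their medians come from unlike sets of peaks. The share over all regions after this scaling was not computed, so the count does not show a drop beyond that of the series. The unstated score cutoff and unknown depth limit every statement on missing peaks.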

Other observations

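The factors that transcribe and process histone mRNA, which include the activator Npat, the stem-loop binding protein Slbp and the U7 snRNP protein Lsm11, had regions at 16 of the 18 genes listed, and 10 of the genes had a region called in all 4 libraries. Lsm11 had 3 regions, all called in every library, with a highest authors' mean signal of 1761. Slbp had 1, called in every library, with a mean signal of 177. Npat had 1, with a mean signal of 108, that was called in neither all libraries nor WT_CTCF alone. Over the 46 regions of this list, 39.1% were called in all libraries and 47.8% in no MUT_CTCF library. Among replication-independent histone genes, 9 of 13 had a region and 8 had one called in every library, including H3f3a (3 of its 4 regions) and H2afz (1 of its 2).

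The 4 histone regions that held a core motif but were called in WT_CTCF alone shared a 12-base string that none of the 10 motif regions called in all libraries held. Capitals mark the core match.
Hist1h4c, 1438 bp away (chr13:23791761-23792048, minus strand): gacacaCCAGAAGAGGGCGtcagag
Hist1h2aa, 8011 bp away (chr13:24034731-24035052, plus strand): cagaggCCAGAAGAGGGCActggat
Hist2h4, in the 3′ UTR (chr3:96065533-96065797, plus strand): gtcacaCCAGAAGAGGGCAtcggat
Hist2h2bb, 9826 bp away (chr3:96092750-96093168, plus strand): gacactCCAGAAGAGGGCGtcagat
The string CCAGAAGAGGGC was looked for after these values were seen. It occurs 50577 times in mm9 and was present in 13424 regions of the series (23.3%), of which 47.5% had no MUT_CTCF peak and 41.7% were called in all libraries. Of the 21667 regions with a core motif match but without the string, 19.5% had no MUT_CTCF peak and 72.9% were called in all libraries. The median authors' mean signal was 67.5 with the string and 176 with a match but without it.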
